A study of Mus musculus with 6 samples.

Results

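Tsnax and Tsn encode TRAX and translin, which assemble together into a nuclease. Both genes were taken from a table of 45706 mouse genes, in which they are the 2 members described here, and both had counts in every library and passed the filter on low counts. The pair was chosen because Tsnax was lower in RBMS1 knockdown cells whichever sample was left out, so the differences of both genes between the groups describe the choice and support nothing, and the calls and adjusted p-values printed for Tsnax only show how it was chosen. RNA was sequenced from 3T3-L1 cells, a mouse embryo fibroblast line that becomes adipocyte-like in culture, after lentiviral delivery of a short hairpin RNA and puromycin selection. The 3 scrambled control samples, given the genotype WT in the labels, carried a hairpin without a target, and the 3 RBMS1 knockdown samples carried one against Rbms1. All 6 were collected on day 7 after induction with IBMX, insulin, dexamethasone and rosiglitazone. The knockdown cells are a selected stable population, and the methods call the samples of a group biological replicates. Whether these came from separate transductions is not given in the sources used here, so the p-values measure the spread between these samples.

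Translin is a small protein that binds RNA and single-stranded DNA, and it was also described as the testis brain RNA-binding protein. TRAX, the translin-associated factor X, is its partner and carries the catalytic residues of the complex that both form, which is known as C3PO. That complex removes the cleaved passenger strand of small interfering RNAs and so helps to activate the RNA-induced silencing complex, it trims the leader fragments left by tRNA processing, and it can degrade some microRNA precursors. In mice without translin, TRAX protein is lost although its mRNA is kept, and adiposity is increased. TRAX also has partners of its own, among them the nuclear protein C1D, the DNA damage kinase ATM and the adenosine receptor Adora2a.

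Tsnax (ENSMUSG00000056820) is a protein-coding gene on the plus strand of chromosome 8, from 125012997 to 125034192 in GRCm38. Its 2 annotated transcripts cover 3917 bases of exon. A processed pseudogene on the opposite strand, Gm45874, overlaps it. Of the 31-base words of the Tsnax transcripts, 12.0% occur in transcripts of other genes, foremost in the pseudogenes Gm8010 and Gm5761, which had 0 counts in all 6 libraries. Tsn (ENSMUSG00000026374) is a protein-coding gene on the minus strand of chromosome 1, from 118294778 to 118311739, with 6 annotated transcripts, 9046 bases of exon, no overlapping gene and 0.989% of its 31-base words in other genes. The estimated counts of both genes were whole numbers in every library.

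Total counts ranged from 3142699 to 11073111 per library, lowest in scrambled control replicate 2, where genes derived from ribosomal RNA took 43.0% of the counts against 8.12% to 17.8% elsewhere. Levels below are CPM, the usual depth-scaled counts, with each library size multiplied by its TMM factor. At these depths 3 counts correspond to 0.220 to 1.49 CPM. Rbms1, the targeted gene, stood at 113, 102 and 99.6 CPM in controls and at 49.2, 61.4 and 84.0 CPM after knockdown, without overlap. At a log2 fold change of -0.69 with a standard error of 0.20, its adjusted p of 0.185 by edgeR did not pass the threshold used throughout, an adjusted p of 0.1 or less, except without RBMS1 knockdown replicate 3 (log2 fold change -0.92, adjusted p = 0.0708 by edgeR). The 9 adipocyte markers examined were detected in every library. Their summed level was 21753 to 24975 CPM in the controls and 10918 to 19818 CPM in the knockdown samples, and that of 6 fibroblast markers was 8978 to 10306 and 5064 to 11344 CPM, most of it from the collagen genes Col1a1, Col1a2 and Col3a1. RBMS1 knockdown replicate 1 stood apart from the other knockdown samples, with the highest adipocyte sum of the 3 (19818 against 10918 and 13525 CPM) and the lowest fibroblast sum (5064 against 11240 and 11344 CPM). All 9 adipocyte and 5 of the 6 fibroblast markers had a log2 fold change below 0. Lower without overlap were 3 adipocyte markers, Lpl, Cebpa and Pnpla2 (-0.87, -0.61 and -0.59). So were 2 fibroblast markers, Pdgfra and Dlk1 (-0.87 and -0.84), beside 9.55% of all tested genes. By edgeR 0 of either list were called, beside 1.22% of all tested genes. By DESeq2 1 of each was called, beside 396 of the 11440 tested genes. An unadjusted p under 0.05 by edgeR was found for 2 of each, beside 12.4% of all tested genes. The differences between these shares were not tested. Macrophage and endothelial markers summed to 0 to 3.27 CPM in every library. In these bulk samples, fewer cells of a type and less RNA per cell cannot be told apart, and the part of these marker differences in the values below was not tested.

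Tsnax mRNA was lower in RBMS1 knockdown adipocytes, while that of its partner Tsn was not. The scrambled control samples held 169, 80 and 220 Tsnax counts, or 27.1, 39.7 and 37.9 CPM. The knockdown samples held 63, 65 and 98 counts, or 9.06, 7.60 and 7.19 CPM. Each knockdown sample lay below each control, and the highest knockdown level was well under the lowest control level, that of scrambled control replicate 1. The group levels were 34.9 ± 6.81 CPM (SD, n = 3) in the controls and 7.95 ± 0.980 CPM (SD, n = 3) in knockdown cells, a fitted log2 fold change of -2.13 (standard error 0.22), or 4.38-fold lower.

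Tsn differed in the other direction and by less. Its counts were 178, 69 and 181 in the scrambled control samples, or 28.5, 34.2 and 31.1 CPM, and 310, 389 and 582 in the knockdown samples, or 44.6, 45.5 and 42.7 CPM. The groups did not overlap here either, with all 3 knockdown samples above the highest control, scrambled control replicate 2. The means were 31.3 ± 2.86 CPM (SD, n = 3) and 44.3 ± 1.40 CPM (SD, n = 3), a difference of 41.4%. The fitted log2 fold change was 0.50 (standard error 0.15).

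**Figure D1:**
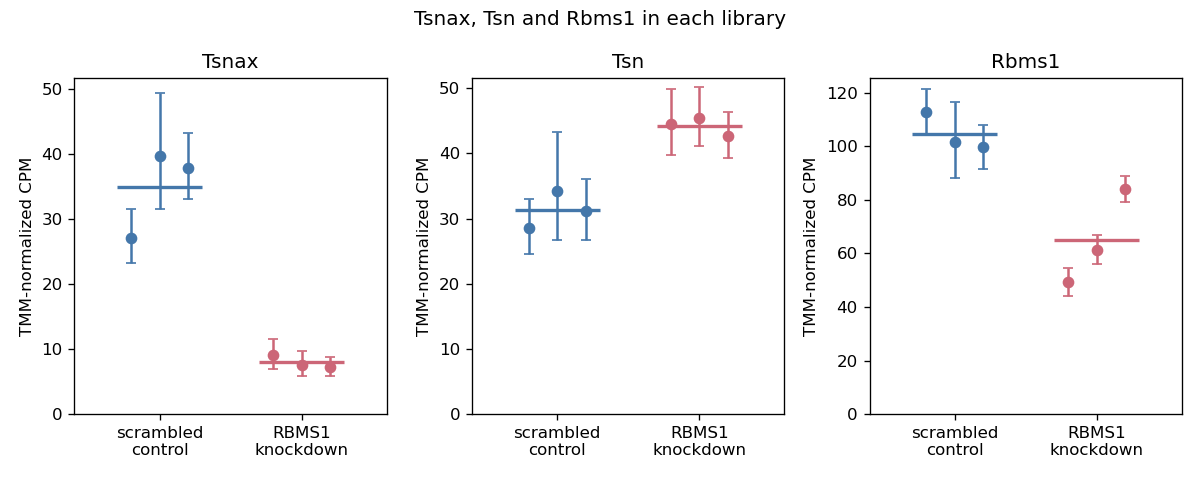
TMM-normalized CPM of Tsnax, Tsn and Rbms1 (y axes, from 0) in the 3 scrambled control and 3 RBMS1 knockdown libraries, in the order of their replicate numbers. Points are libraries, thin bars the 95% exact Poisson interval of the count, which covers counting error only, and horizontal lines the group means; the knockdown Tsnax points lie between 7.19 and 9.06 CPM, below all controls, and those of Tsn between 42.7 and 45.5 CPM, above all controls.

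Of the 2 members, 1 (Tsnax) was called, against 1.22% of all 11440 tested genes (0.909% lower and 0.315% higher), or 104 lower of 140, and 42 lower of 126 when libraries were scaled by their totals only. Both were without overlap between the groups, against 18.5% of all tested genes (9.55% lower and 8.96% higher in knockdown cells). Nothing is read from these counts, since Tsnax was chosen on this contrast. Among all tested genes, 47 had a more negative log2 fold change than Tsnax and 997 a more positive one than Tsn, and the median over all of them was 0.0044. By mean level, Tsnax stood near the middle of the tested genes (percentile 48.9) and Tsn somewhat higher (percentile 65.3), so neither is a rare transcript in these cells. The choice of Tsnax rests on its adjusted p in 6 fits with 1 sample left out, the highest of which was 0.0663 by edgeR. Of the 104 genes called lower, 11 stayed at or under 0.1 in each of those fits. Ptprm was the last of them (highest adjusted p 0.0999 by edgeR), and Ndrg2 was the first beyond (0.106 by edgeR).

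Because both members come from the same libraries, their ratio does not depend on how the libraries are scaled. In counts per kb of exon, the ratio of Tsnax to Tsn was 2.19, 2.68 and 2.81 in controls and 0.469, 0.386 and 0.389 after knockdown. Tsnax thus had the higher level per length in every control and Tsn in every knockdown sample. The mean ratio was 2.56 ± 0.324 (SD, n = 3) against 0.415 ± 0.0473 (SD, n = 3), 6.17-fold lower in knockdown cells. With the longest annotated transcript as the length, the means were 3.27 ± 0.414 and 0.530 ± 0.0606 (SD, n = 3 each), on the same sides of 1 in each library. These ratios are of mRNA, and the transcripts from which the counts were summed are not given in the sources used here, so their distance from 1 depends on the length taken while the fold between the groups does not.

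**Figure D2:**
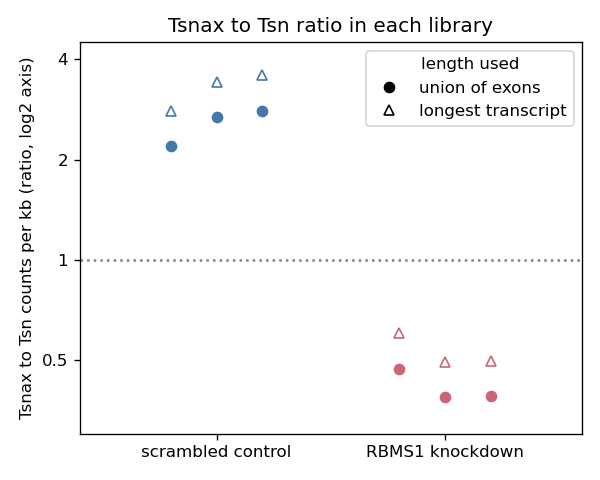
Ratio of Tsnax to Tsn in counts per kb (log2-spaced y axis) in each of the 6 libraries, with the union of exons (filled circles) or the longest transcript (open triangles) as the length. All control libraries lie above the dotted line at 1 and all knockdown libraries below it.

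Relative to all tested genes, Tsnax lies on a chromosome whose genes were lower in the median, and Tsn on one whose genes were higher. The median log2 fold change was -0.38 over the 624 genes tested on chromosome 8 and 0.25 over the 675 on chromosome 1. When libraries were scaled by their totals only, these medians were -0.0016 and 0.62 around an all-gene median of 0.37, so that relative to all genes they stood at -0.37 and 0.25, against -0.39 and 0.25 with TMM factors. Expressed against the mean of the controls in log2 CPM, the chromosome 8 median was -0.36, -0.39 and -0.35 in the knockdown libraries, and Tsnax was -1.89, -2.14 and -2.21. The distance of Tsnax from that median was therefore -1.54, -1.74 and -1.87 in the knockdown libraries, while it was between -0.31 and 0.17 in the controls. Of the chromosome 8 genes, 4 had a lower log2 fold change than Tsnax. On the same scale the chromosome 1 median was 0.26, 0.28 and 0.25 in the knockdown libraries, and Tsn was 0.51, 0.54 and 0.45. Relative to the median of its chromosome, the fitted log2 fold change of Tsnax was -1.75 and that of Tsn 0.25. On chromosome 1, 141 of the tested genes had a higher log2 fold change than Tsn.

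The genes beside Tsnax were lower by less. On the upstream side the log2 fold changes, with standard errors in parentheses, were -0.82 (0.22) for Exoc8, an exocyst subunit, -0.84 (0.27) for Sprtn, a protease for DNA-protein crosslinks, and -0.45 (0.42) for Egln1, an oxygen-sensing prolyl hydroxylase of hypoxia-inducible factors. Downstream, Sipa1l2, Ntpcr and Coa6, the last an assembly factor of cytochrome c oxidase, had log2 fold changes of -0.54 (0.21), -0.63 (0.27) and -0.43 (0.36). None of these 6 neighbours passed the threshold, with adjusted p between 0.153 and 0.721 by edgeR. Exoc8 passed with DESeq2 (adjusted p = 0.0603). Without RBMS1 knockdown replicate 1, Exoc8, Sprtn and Egln1 did pass (log2 fold changes -1.05, -1.16 and -1.15, adjusted p 0.0209, 0.0288 and 0.0456 by edgeR), in a fit that called 696 genes in all against 140. Of the 16 tested genes that start within 1 Mb of Tsnax, 14 were below 0, with a median of -0.55, a range of -0.96 to 0.48 and 0 called by edgeR. Over the whole of chromosome 8, 90.1% of the 624 tested genes were below 0, so the share below 0 near Tsnax was about that of its chromosome. Of these 624 genes, 25 were called, all of them lower. Among all 11440 tested genes, 5673 were below 0 and 1.22% were called. Disc1, downstream of Tsnax on the same strand, whose product binds many proteins of neuronal development, had 1 count over all libraries and was not tested.

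Around Tsn, tested genes were sparse on one side. Nifk, a nucleolar protein gene that starts 27.1 kb away, Clasp1, a microtubule-binding protein gene at 94.3 kb, and Gli2, a Hedgehog transcription factor gene at 539 kb, had log2 fold changes of 0.25 (standard error 0.22), 0.39 (0.14) and 0.19 (0.36). On the other side the nearest tested genes, Dsel, Serpinb8 and Vps4b, start 6.44 to 11.5 Mb away and had log2 fold changes of -0.0063 (0.24), 0.013 (0.42) and 0.25 (0.17). None of these 6 genes passed the threshold (adjusted p 0.295 to 0.994 by edgeR).

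**Figure D3:**
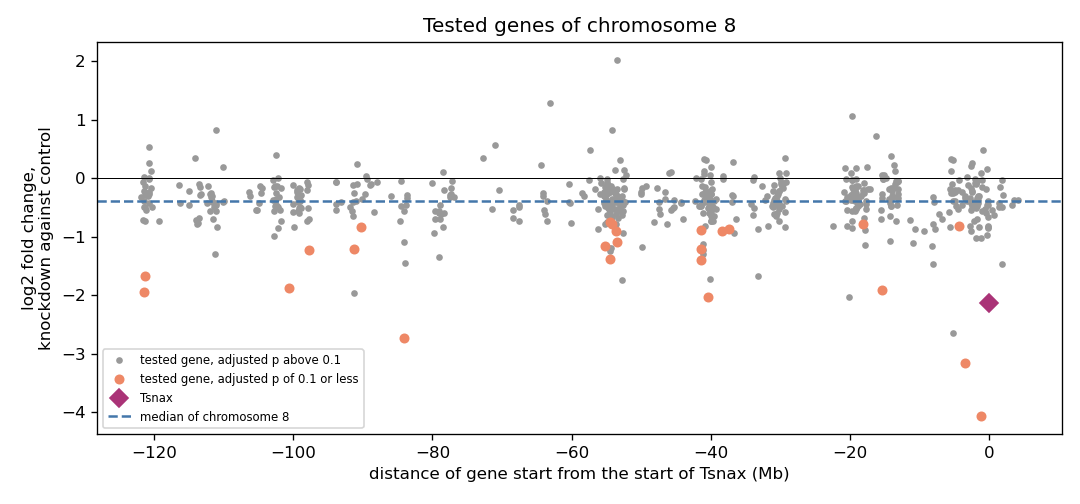
Log2 fold change of RBMS1 knockdown against scrambled control (y axis) for the 624 tested genes of chromosome 8, by distance of the gene start from that of Tsnax in Mb (x axis). Orange points are other genes at an adjusted p of 0.1 or less and the dashed line is the median of -0.38; Tsnax (diamond) lies at -2.13, below all 16 other tested genes within 1 Mb, and the lowest gene of the chromosome, Acta1, lies at -4.06.

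Genes of the pathways in which translin and TRAX act were then examined from 4 lists written by role. None of their 55 tested members was called by edgeR or DESeq2, beside 1.22% of all tested genes by edgeR and 396 of 11440 by DESeq2. Of the 55, 1 (Zcchc11) had an unadjusted p under 0.05 by edgeR, against 12.4% of all tested genes. The groups did not overlap for 5 of the 55, beside 18.5% of all tested genes, and the difference between these shares was not tested. These were Tnrc6b and Papd4, lower in knockdown cells, and Gsk3b, Zcchc11 and Dis3l2, higher.

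The small RNA pathway list holds the Argonaute proteins, the processing enzymes and their cofactors. Of its 14 genes, 13 were tested and 4 of these had a log2 fold change below 0, with a median of 0.064 and a range of -0.20 to 0.27. Ago2, the Argonaute with slicer activity that the complex assists, had 219 CPM in the controls and 246 CPM in knockdown cells, a log2 fold change of 0.17 with a 95% interval from -0.24 to 0.58. Dicer1, which cuts precursors into small RNA duplexes, had one of 0.059 (standard error 0.14) and Tarbp2, its double-stranded RNA-binding cofactor, one of 0.27 (0.22). The other most abundant members were Tnrc6b, a scaffold of the silencing complex, at -0.20 (0.15), and Drosha, the nuclear enzyme that releases precursors, at -0.13 (0.16). Ago4 had 1 count in all and was not tested.

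The tRNA maturation list covers the RNase P and MRP proteins, the RNase Z enzymes, the tRNA splicing endonuclease and the ligase complex. Of its 24 genes, 23 were tested and 10 of these were below 0, with a median log2 fold change of 0.028 and a range of -0.24 to 0.38. The 3 most abundant members were Ddx1, a helicase of the ligase complex, at -0.22 (standard error 0.17), Ssb, the La protein that binds the ends of new tRNA precursors, at -0.18 (0.19), and Rtcb, the ligase itself, at 0.20 (0.18). Elac2, the long RNase Z, which cuts the trailer of tRNA precursors, had one of -0.11 (0.23). Rpp25 had 0 counts in all libraries.

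Of 11 genes whose products bind translin or TRAX, 9 were tested and 5 of these were below 0, with a median log2 fold change of -0.069 and a range of -0.64 to 0.30. C1d, the nuclear partner of TRAX, had 16.1 CPM in the controls and 15.0 CPM in knockdown cells, a log2 fold change of -0.11 with a 95% interval from -0.54 to 0.33. Atm had one of 0.18 (standard error 0.18). The 3 most abundant members were Gsk3b, a kinase, Vcp, an ATPase that unfolds proteins, and Plcb1, a phospholipase C, at 0.30 (0.15), -0.24 (0.15) and -0.069 (0.17). Gsk3b was at 246 to 255 CPM in the controls and 287 to 347 CPM in the knockdown samples, and its adjusted p was 0.441 by edgeR. Adora2a had 5 counts, all in RBMS1 knockdown replicate 3, and was not tested. Tsnaxip1, named for its interaction with TRAX and chosen here after its values were seen, had 3 counts in all.

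The small RNA turnover list holds nucleases and nucleotidyl transferases that degrade or mark small RNAs. All 10 of its genes were tested and 4 were below 0, with a median log2 fold change of 0.041 and a range of -0.43 to 0.59. Snd1, Zcchc6 and Xrn2, its most abundant members, stood at 0.23 (standard error 0.16), 0.098 (0.16) and -0.096 (0.18). Zcchc11, a terminal uridylyl transferase chosen here after its values were seen, had 27.6, 22.8 and 29.4 CPM in the controls and 38.0, 42.9 and 37.1 CPM in the knockdown samples. At a log2 fold change of 0.56 with a standard error of 0.17, its adjusted p was 0.207 by edgeR. Dis3l2, an exoribonuclease that degrades uridylated RNA, stood at 0.59 (0.28, adjusted p = 0.423 by edgeR) and Papd4, a cytoplasmic poly(A) polymerase, at -0.43 (0.22, adjusted p = 0.466 by edgeR), both also chosen after their values were seen.

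**Figure D4:**
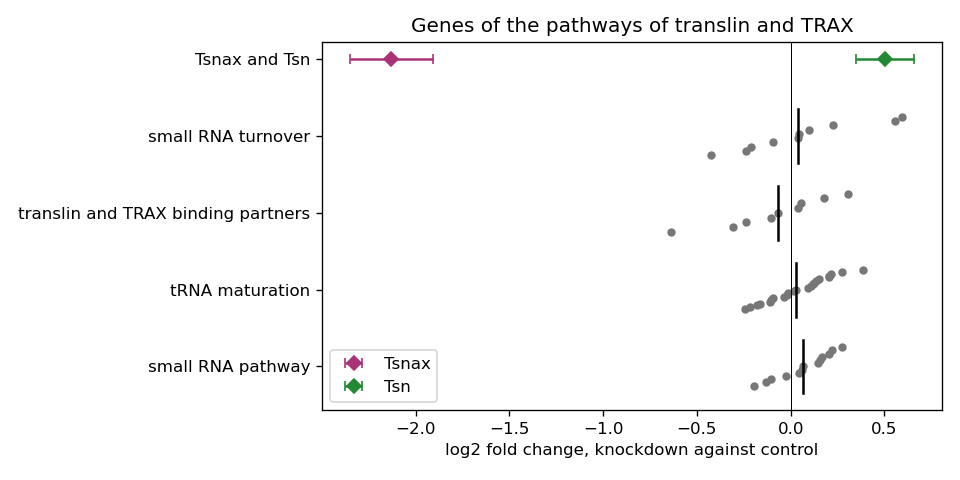
Log2 fold changes of RBMS1 knockdown against scrambled control (x axis) for the tested genes of 4 lists by role (grey points, spread vertically for legibility, black bars the list medians) and for Tsnax and Tsn (diamonds with standard errors). List members lie between -0.64 and 0.59 with medians between -0.069 and 0.064, Tsnax at -2.13 and Tsn at 0.50.

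Genes with the pattern most like that of each member were found by the root mean square difference of mean-centred log2 CPM over the 6 samples. This measure includes the difference between the groups, so fold changes like those of the member follow from it and support nothing. For Tsnax, the nearest was Chrdl1, a secreted antagonist of bone morphogenetic proteins on chromosome X, at a difference of 0.16. It was followed by Cgnl1, a junction protein gene, Gstk1, a glutathione transferase gene, Smarca2, an ATPase subunit of SWI/SNF complexes, and Cracr2b, at 0.21 to 0.28, while the median over all tested genes was 1.10. None of these 5 lies on chromosome 8. Their log2 fold changes were -2.15 for Chrdl1, -1.75 for Cgnl1, -2.15 for Gstk1, -1.60 for Smarca2 and -2.32 for Cracr2b, the last at 2.65 CPM in the controls and without a call by edgeR (adjusted p = 0.177), though called by DESeq2 (adjusted p = 0.0960). The call of Cgnl1 was lost when control 2, control 3 or knockdown 2 was left out, and that of Gstk1 when any of these or control 1 was (adjusted p 0.101 to 0.118 by edgeR). For Tsn, the nearest were Usp40 and Cops8, both on chromosome 1, then Zfp512, Arfrp1 and Gnaq, at differences of 0.046 to 0.065 against a median of 0.389. Usp40 encodes a deubiquitinase-family protein, Cops8 a subunit of the signalosome and Gnaq a G protein alpha subunit. Their log2 fold changes were 0.46, 0.45, 0.47, 0.46 and 0.52 in that order, none of them called (adjusted p 0.157 to 0.389 by edgeR), although Gnaq was called by DESeq2 (adjusted p = 0.0763) and by edgeR without RBMS1 knockdown replicate 1 (adjusted p = 0.0854).

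The fold changes of both members were recomputed under 17 processing alternatives, 6 of which are the fits with 1 sample left out by which Tsnax was chosen, so its direction in those was fixed by the choice. The log2 fold change of Tsnax ranged from -2.28 to -1.73 and that of Tsn from 0.26 to 0.89. With 1 sample left out at a time, the ranges were -2.28 to -2.04 and 0.44 to 0.57. When libraries were scaled by their totals only, the median of all genes rose to 0.37, with Tsnax at -1.73 and Tsn at 0.89. After the chromosome medians of every sample had been subtracted, Tsnax was at -1.73 and Tsn at 0.26.

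**Figure D5:**
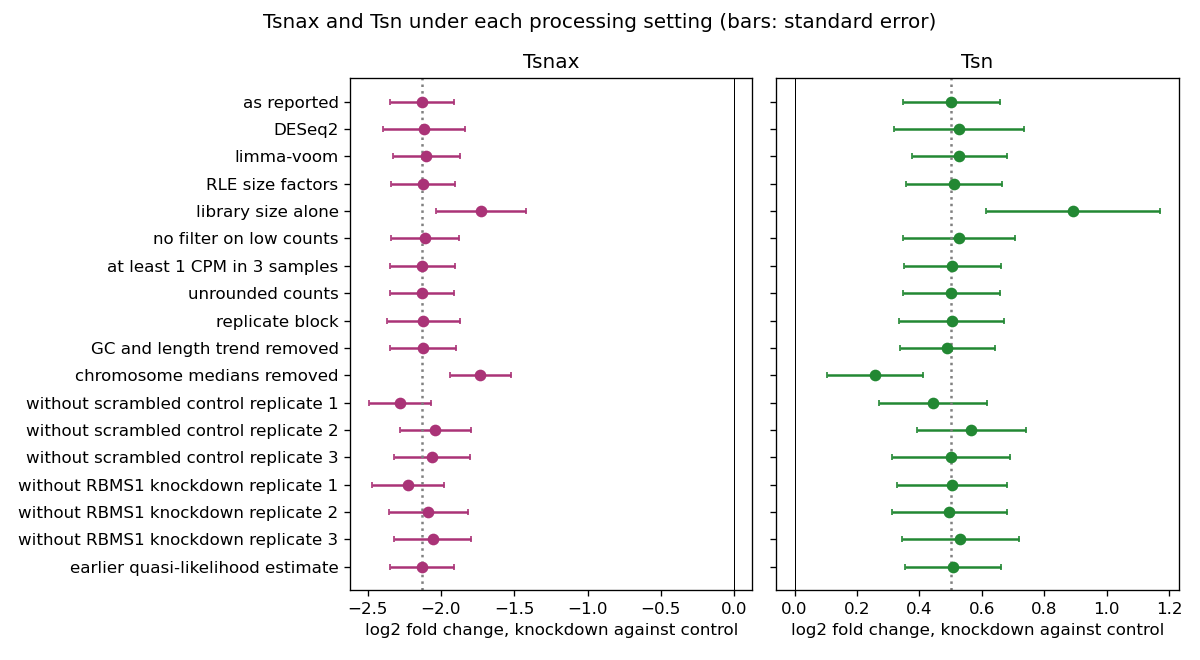
Log2 fold change of RBMS1 knockdown against scrambled control (x axes) of Tsnax and Tsn as reported and under 17 processing alternatives (rows). Bars are standard errors, solid lines mark 0 and dotted lines the reported values of -2.13 and 0.50; library size alone and the removal of chromosome medians moved both genes most.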

How the data were processed

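RNA from 6 samples of 3T3-L1 cells, 3 per group, was sequenced from ribosomal RNA-depleted stranded libraries. Per the submitters' notes and methods, the authors used Trim Galore 0.6.7 for trimming, STAR 2.7.10a with GRCm38 for alignment and Salmon 1.9.0 for the estimated counts per gene that they deposited without normalization; the annotation release is not given in the sources used here. Here, the estimated counts were rounded (3.97% to 7.78% of values in a library were not whole, tolerance 1e-06) and tested for the condition alone with edgeR 4.0.16 in R 4.3.3 (filterByExpr, TMM, estimateDisp, glmQLFit with its current estimate, glmQLFTest), with Benjamini-Hochberg adjustment over 11440 genes and a threshold of 0.1. Standard errors are the log2 fold change divided by the root of F. Positions, exon lengths and shared 31-base words came from GENCODE M21, on GRCm38. Intervals cover counting error only where so named. The smallest p of an exact permutation test of 3 against 3 is 0.1, so none was run.

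The members and lists were chosen with earlier results of these data known. Genes were named by a rule: the members, Rbms1, called and the 3 most abundant genes of each list, 8 central genes of these pathways, the 3 tested neighbours on each side of a member, overlapping genes, and the 5 nearest patterns. Alternatives were DESeq2 1.42.0, limma-voom 3.58.1, RLE factors, library size alone, no filter, 1 CPM in 3 samples, unrounded counts, a replicate block, removal of GC and length trends (loess, span 0.3) or of chromosome medians (chromosome 3 parted at 50 Mb), and each sample left out, plus edgeR's earlier estimate, added after seeing the data. The scripts were tested on simulated data. No protein sequence is printed, as none was used here.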

Additional observations from a re-analysis of the deposited data

How the results depend on the processing

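Tsnax and Tsn kept their directions under the 17 alternatives run, which for Tsnax with 1 sample left out was fixed by its choice, and the 4 pathway lists had 0 called genes under each. Low counts limit precision: 63 for Tsnax in RBMS1 knockdown replicate 1 and 69 for Tsn in scrambled control replicate 2 were the lowest, with counting errors of 12.6% and 12.0%. The 140 called genes (104 lower) became 430 (285 lower) with DESeq2, 268 (180) without a filter, 39 (33) with a replicate block, 71 (54) with chromosome medians removed, and 12 to 696 with 1 sample left out: 21, 12 and 32 when control 1, 2 or 3 was left out, and 696 and 38 when knockdown 1 or 2 was; the causes were not tested. With library size alone, 42 of 126 were lower, Tsnax was at -1.73 and Tsn at 0.89, around an all-gene median of 0.37. With chromosome medians removed, Tsnax was at -1.73, Tsn at 0.26 and the log2 ratio of Tsnax to Tsn differed by -1.94 between the groups, against -2.62. With 1 sample left out that difference was -2.73 to -2.55, and Tsnax less the chromosome 8 median was -1.89 to -1.65. Both groups share the same replicate numbers, and whether same-numbered samples were handled together is not given in the sources used here. Deviations of same-numbered samples from their group means correlated at -0.14, 0.078 and -0.028 across genes. Not every sample correlated best with its own number. With 3 samples per group, these values cannot settle whether the samples were paired. The replicate block changed no call among the single genes refitted with it (Acta1, Ptprm and Ndrg2 were not among them), though it moved the count as given.

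Among genes without a call, log2 fold changes changed sign as follows. With library size alone they were 0.19 for Tnrc6b, 0.26 for Drosha, 0.20 for Ddx1, 0.23 for Ssb, 0.15 for Vcp, 0.32 for Plcb1, 0.30 for Xrn2, 0.26 for C1d, 0.26 for Elac2 and 0.39 for Dsel. Dsel was also at 0.021 with DESeq2, 0.032 with limma-voom, 0.0018 with RLE factors, 0.023 without a filter and 0.0056 with the earlier estimate. Serpinb8 was at -0.12 with the block, -0.044 with GC and length trends removed and -0.23 with chromosome medians removed, where Gli2 was at -0.049. With 1 sample left out the ranges were -0.27 to 0.38 for Serpinb8, -0.11 to 0.20 for Dsel, -0.11 to 0.56 for Gli2, -0.019 to 0.29 for Ago2, -0.20 to 0.0087 for Plcb1, -0.42 to 0.057 for Elac2 and -0.0014 to 0.23 for Zcchc6.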
